A study of Mus musculus with 6 samples.

Results

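The S phase genes described here are 31 genes whose products license replication origins, supply deoxynucleotides, copy DNA, start S phase or pack and repair the new strands. S phase is the part of the cell cycle in which the genome is duplicated. The genes were taken by name from a list, and their 34 probe sets are part of 28815 on the array, which names 19935 genes. Hematopoietic stem cells (HSC), which live in the bone marrow and give rise to the blood, came from wild-type (WT) mice and from Selp-/- mice, which lack the adhesion receptor P-selectin. Both genotypes were of the C57BL/6 strain, and the labels name no treatment, age or sort gate. Each genotype had 3 arrays, numbered 1 to 3, and the labels say neither what the number marks nor whether each array stands for a separate mouse. P-values thus measure the spread between samples that may be technical replicates. The study asked which genes depend on P-selectin in HSC, and Selp itself was not measured by a named probe set.

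Replication is prepared in G1, when Cdc6 and Cdt1 load the helicase of Mcm2 to Mcm7 onto origins. Cyclin E with its kinase, Cdc45 and the GINS complex then start the helicase, and geminin (Gmnn) stops a further round of loading. Most of these genes are known targets of E2F factors, which the retinoblastoma protein holds back in resting cells. Adult HSC are known to be mostly quiescent, while their progeny divide often.

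Promoters are shown because shared E2F-type sites are a known feature of this gene class. RefSeq promoter windows (GRCm38.p6, 250 bases before to 50 after the start) were found for 26 of the 31 genes, 28 windows in all. They were searched on both strands for 4 E2F-type words, TTTCCCGC, TTTGGCGC, TTTCGCGC and TTTGCCGC, and for the CCAAT box. An E2F-type word stood in 8 member windows (28.6%), against 2.26% of all 32851 windows of that length. These were windows of Mcm3, Mcm5, Mcm6, Mcm7, Cdc6, Cdt1, Pola1 and Uhrf1. The words were most frequent among licensing genes, a group that here includes origin firing factors such as Cdc45, with 6 of 10 windows. Of nucleotide supply genes 0 of 5 windows held such a word. A CCAAT box stood in 17 member windows (60.7%), against 37.4% of all, and in 1 member window it overlapped an E2F-type word. The 180 bases before the start are printed for Mcm6, which held the most words, and for Mcm7, Pola1, Rrm2 and Ccne1, whose levels passed a test between array numbers. Capitals mark E2F-type words and CCAAT boxes on either strand.
Mcm6, chr1:128359706-128359885 (minus strand): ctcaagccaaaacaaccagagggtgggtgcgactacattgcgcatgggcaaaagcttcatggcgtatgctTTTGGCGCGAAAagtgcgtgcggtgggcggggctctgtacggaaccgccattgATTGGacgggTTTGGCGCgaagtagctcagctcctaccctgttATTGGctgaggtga
Mcm7, chr5:138171884-138172063 (minus strand): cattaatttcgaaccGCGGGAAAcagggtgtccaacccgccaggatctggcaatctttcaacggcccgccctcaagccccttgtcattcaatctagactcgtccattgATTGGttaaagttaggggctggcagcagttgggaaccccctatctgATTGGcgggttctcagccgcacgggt
Pola1, chrX:93632156-93632335 (minus strand): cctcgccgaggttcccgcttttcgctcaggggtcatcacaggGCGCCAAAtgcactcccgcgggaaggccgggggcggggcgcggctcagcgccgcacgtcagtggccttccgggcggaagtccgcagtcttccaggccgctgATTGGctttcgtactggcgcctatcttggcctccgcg
Rrm2, chr12:24708074-24708253 (plus strand): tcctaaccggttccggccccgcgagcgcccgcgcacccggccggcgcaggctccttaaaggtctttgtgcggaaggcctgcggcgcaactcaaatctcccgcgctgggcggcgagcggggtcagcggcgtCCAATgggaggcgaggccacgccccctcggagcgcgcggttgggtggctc
Ccne1, chr7:38107491-38107670 (minus strand): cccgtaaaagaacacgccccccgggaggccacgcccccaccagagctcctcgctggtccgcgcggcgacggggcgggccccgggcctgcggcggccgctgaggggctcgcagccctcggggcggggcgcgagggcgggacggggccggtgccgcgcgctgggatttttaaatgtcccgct
In Mcm6 the words began 110, 106 and 47 bases before the start, the first and second of them overlapping on opposite strands. In the printed stretches a word began 165 bases before the start of Mcm7 and 138 before that of Pola1. The window of Mcm7 held a further word outside the stretch. Rrm2 had a CCAAT box 50 bases before its start and no E2F-type word, and the stretch of Ccne1 had neither. A match is a run of letters and not a measured site of binding. Only the 4 exact words were searched, so a window without one may still hold an E2F site of other letters.

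Some arrays stood apart from the rest. The median intensity was lowest in number 2 within each genotype, at 563 against 636 and 751 in WT and at 638 against 701 and 713 in Selp-/- HSC. Of 9 tested HSC markers limma called 7 lower in number 3 at an adjusted p under 0.05 (77.8%, against 11.7% of probe sets). The summed normalized intensity of that list was 6130 and 6210 there, against 18600 to 25000 in the other arrays. Mast cell and basophil markers summed to 42800 and 56200 in the arrays numbered 3 and to 3650 to 4720 elsewhere. Limma called 6 of 6 tested genes higher (100%, against 9.13% of probe sets). The list has 8 genes on the array, and those not tested were too dim in the mean of all 6 arrays. Such a mean favours genes that are high in number 3, so the share of 100% is partly set by that choice. The contrast of number 3 was also chosen with earlier results of these data known. No marker intensity was 0, but the lowest of any probe set was 43 to 55 by array, so none could be. For these markers, fewer cells of a type and less RNA per cell cannot be told apart in such bulk samples. Selp-/- 3 differed further in Xist, expressed from the inactive X chromosome, with an intensity of 398 against 5010 to 10757 elsewhere. Whether the mice differed in sex was not tested.

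Levels are log2 intensities after background correction and quantile normalization, and they compare arrays for 1 probe set, never 1 gene with another. Gmnn was left out as dim, its mean level lying under the 40th percentile of all probe sets (8.79). Its levels were 8.66, 8.01 and 8.07 in WT 1 to 3, and 8.67, 7.95 and 8.67 in Selp-/- 1 to 3. Both arrays numbered 2 and WT 3 were thus low for this inhibitor of licensing. The other 30 genes were tested, each by its brightest probe set.

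**Figure D1:**
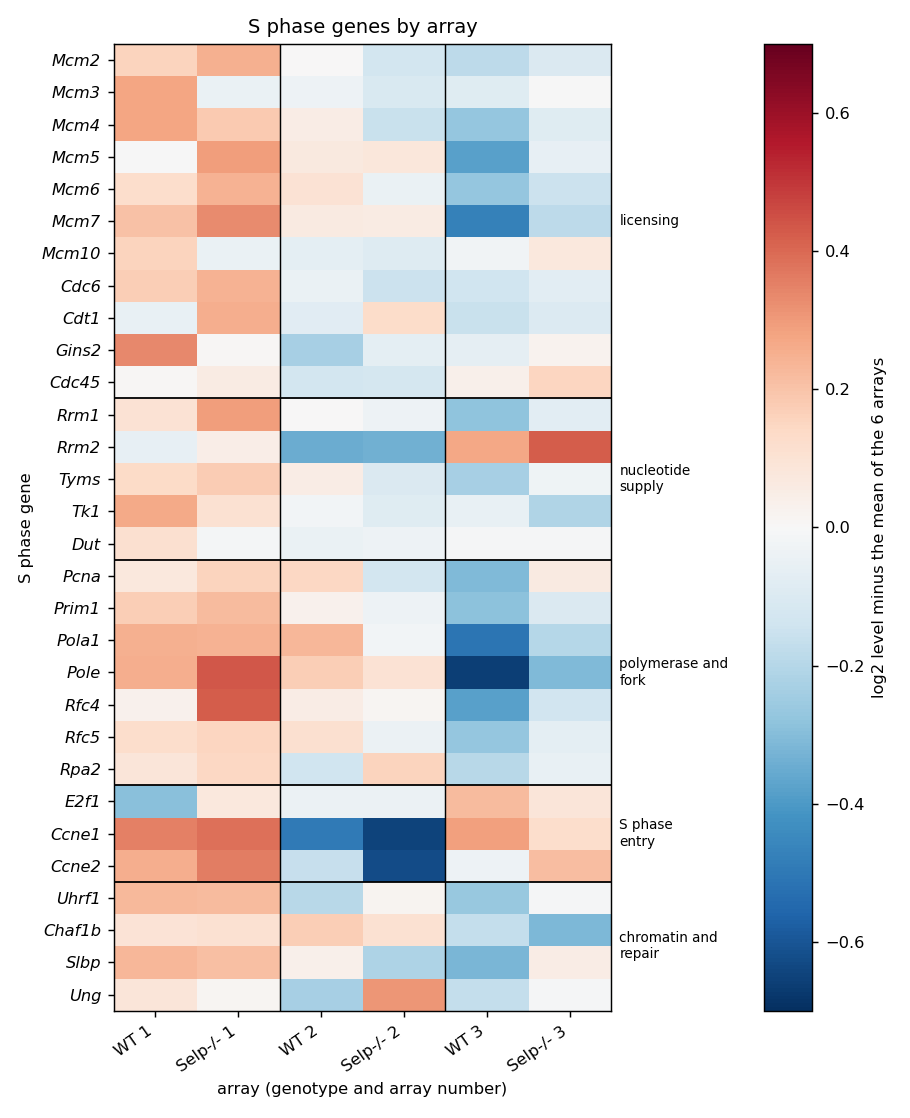
Log2 level of each of the 30 tested S phase genes in each array, as the difference from that gene's mean over the 6 arrays, with genes in rows by role and arrays in columns by number. Ccne1 and Ccne2 are lowest in both arrays numbered 2, and Pole and Mcm7 are lowest in both arrays numbered 3.

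None of the 30 genes passed the test of genotype, and their differences were small. The median member difference, Selp-/- minus WT, was 0.033 on the log2 scale, with 21 genes above 0 (70% of the members, against 51.8% of probe sets). The median turned to -0.064 without WT 3 and to -0.039 without Selp-/- 1. Limma called 0 members at an adjusted p of 0.05, beside 0 of 17289 probe sets (0%). At an unadjusted p under 0.05 lay 0 members, against 0.706% of probe sets. The 3 values of Selp-/- HSC lay wholly above those of WT for 0 members, against 2.24% of probe sets, and wholly below for 0, against 1.97%. With the replicate number as a block, 0 members passed (0% of probe sets), and 0 members lay at an unadjusted p under 0.05, against 3.64%. Selp-/- was higher at all 3 numbers for Mcm5, Cdt1, Cdc45, Rrm2 and Rpa2 (16.7%, against 12.6% of probe sets) and lower at all 3 for Tk1 (3.33%, against 11.2%). The other probe set of Tk1 was higher in Selp-/- at all 3 numbers.

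Among licensing genes the median genotype difference was 0.014, with 7 of 11 above 0. Mcm5, a subunit of the helicase, had levels of 11.53, 11.60 and 11.15 in WT 1 to 3 and of 11.83, 11.61 and 11.47 in Selp-/- 1 to 3. The mean was 11.43 ± 0.24 against 11.64 ± 0.18 (SD, n = 3 each), a difference of 0.21 (SE 0.17), and the groups overlapped. Cdt1, the loading factor, had levels of 10.61, 10.58 and 10.51 in WT 1 to 3 and of 10.92, 10.79 and 10.57 in Selp-/- 1 to 3, a difference of 0.19 (SE 0.14). Here Selp-/- 3 lay under WT 1 and WT 2, so the groups overlapped as well. The helicase subunits Mcm2, Mcm4 and Mcm6 gave genotype differences of 0.014, -0.039 and 0.031, and Mcm3 and Mcm7 gave -0.10 and 0.14. The origin firing factors Mcm10, Gins2 and Cdc45 gave -0.041, -0.028 and 0.054, and the loader Cdc6 gave 0.010.

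The nucleotide supply genes had a median genotype difference of 0.032. Rrm1 and Rrm2, the large and small subunit of ribonucleotide reductase, gave 0.12 (SE 0.16) and 0.089 (SE 0.25). Tyms, which makes thymidylate, and Dut, which removes dUTP, gave 0.032 and -0.040. Tk1, thymidine kinase, was measured by a pair of probe sets that gave opposite signs, -0.13 for the brighter and 0.065 for the other, so its direction is uncertain.

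All 7 polymerase and fork genes lay above 0, with a median of 0.058. Pcna, Prim1, Pola1, Pole and Rfc5 turned below 0 without WT 3 (-0.23 to -0.074) and also without Selp-/- 1 (-0.10 to -0.0072). The SE was larger than the difference for all but Rfc4 and Rpa2. Rfc4, a subunit of the clamp loader, gave 0.20 (SE 0.20), and Rpa2, a subunit of the single-strand binding protein, 0.17 (SE 0.14). Pole, the leading strand polymerase, gave 0.15 (SE 0.30). The primase Prim1 and the polymerase Pola1 gave 0.055 and 0.017, and the clamp loader subunit Rfc5 gave 0.027. Pcna, the sliding clamp, gave 0.058 with its brighter probe set and 0.034 with the other.

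Of the genes that start S phase, E2f1 gave a genotype difference of 0.078, and the cyclins Ccne1 and Ccne2 gave -0.094 (SE 0.33) and -0.035 (SE 0.27). With the replicate number as a block the SE of Ccne1 was 0.10, since its spread lay mainly between numbers. Ung, which removes uracil from DNA, had levels of 9.48, 9.17 and 9.23 in WT 1 to 3 and of 9.42, 9.71 and 9.39 in Selp-/- 1 to 3. Its difference of 0.21 (SE 0.14) lay mainly at number 2. Uhrf1, a factor in the upkeep of DNA methylation, gave 0.15, and Chaf1b, a histone chaperone subunit, -0.067. Slbp, which binds histone mRNA, gave 0.035 with its brighter probe set and -0.071 with the other.

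The genotype difference changed with the array number. The members' median was 0.047 at number 1, -0.065 at number 2 and 0.16 at number 3, with 20, 10 and 25 of 30 genes above 0. Of all tested probe sets, 50.5%, 51.9% and 50.1% lay above 0 in these pairs. Each pair sets 1 array against 1 array and has no replicate check. Pcna had levels of 13.04, 13.11 and 12.66 in WT 1 to 3 and of 13.12, 12.83 and 13.02 in Selp-/- 1 to 3. It was higher in WT at number 2 and higher in Selp-/- at number 3. In the arrays numbered 1 and 2 alone 0 members were called, and without Selp-/- 3 also 0.

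**Figure D2:**
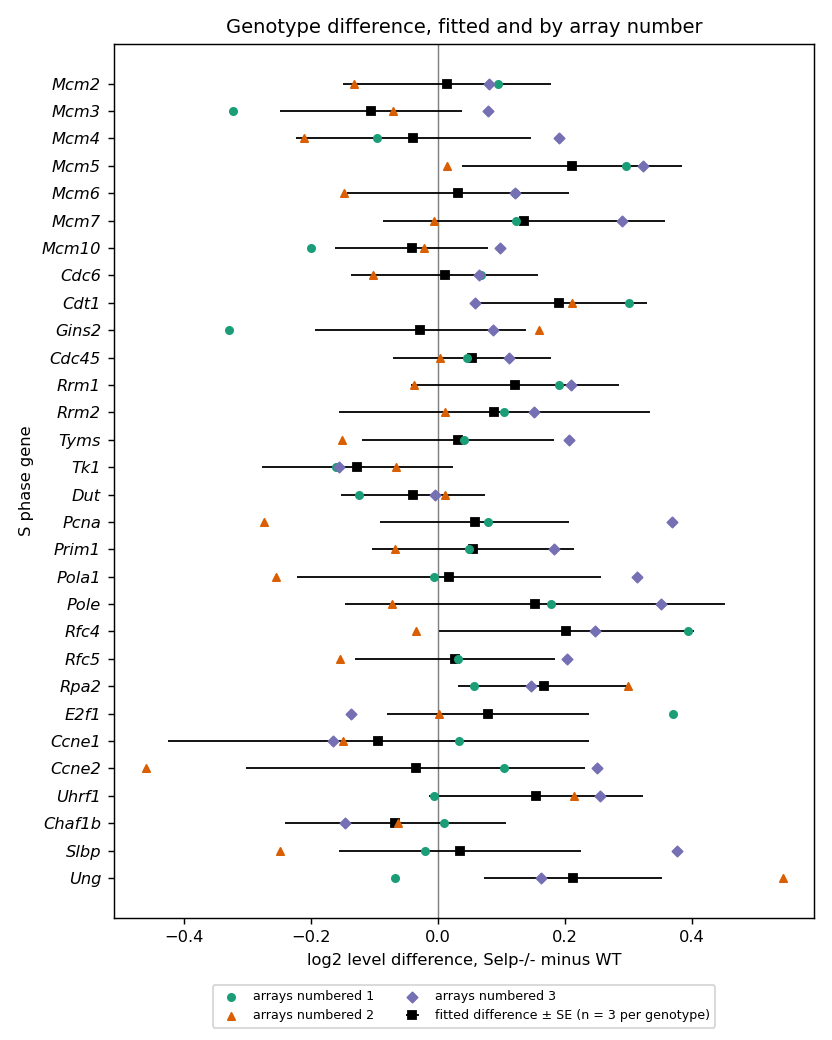
Difference in log2 level, Selp-/- minus WT, for each tested S phase gene. Squares with bars give the fitted difference and its SE (n = 3 arrays per genotype), and coloured points give the difference at each array number. No gene passed the test, and of 30 genes 10 lie above 0 at number 2 and 25 at number 3.

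By array number, S phase genes were highest in the arrays numbered 1. Both arrays numbered 1 lay above the other 4 arrays for 16 of 30 genes (53.3%), against 7.99% of all tested probe sets. These were Mcm2, Mcm4, Mcm6, Mcm7, Cdc6, Rrm1, Tyms, Tk1, Prim1, Pola1, Pole, Rfc5, Ccne1, Ccne2, Uhrf1 and Slbp. Number 1 was lowest for 0 members, against 8.09% of probe sets. In number 2 minus number 1 the members' median was -0.19, with 28 of 30 genes below 0 (93.3%), against 47.1% of probe sets, and E2f1 and Chaf1b above 0. In that contrast limma called 0 members at an adjusted p of 0.05, beside 9 of 17289 probe sets (0.0521%). At an unadjusted p under 0.05 lay Cdc6, Rrm2, Ccne1 and Ccne2 (13.3% of members, against 7.96% of probe sets). Without normalization all probe sets shifted by -0.27 in this contrast, and relative to that shift the members' median was -0.27 with 28 of 30 genes below it. The median of -0.19 became -0.29 without WT 2 and -0.11 without Selp-/- 2, where 24 genes lay below 0.

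Erythroid and neutrophil markers moved with the number as well. Erythroid markers summed to 23400 and 23800 in the arrays numbered 1, to 7470 and 7840 in number 2 and to 4960 and 5000 in number 3. Number 1 was highest for 5 of 7 tested genes (71.4%, against 7.99% of probe sets). Car1, an erythroid carbonic anhydrase, was at 14.01 and 13.95 in number 1 and at 12.08 and 11.91 in number 2. Neutrophil markers summed to 15400 and 16200 in number 2, against 34400 to 63000 elsewhere. Number 2 was lowest for 8 of 8, against 9.78% of probe sets. The part of these cells, or of array brightness, in the S phase values was not tested.

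In number 2 minus number 1 the groups had medians of -0.19 for licensing, -0.21 for nucleotide supply, -0.14 for polymerase and fork and -0.16 for chromatin and repair genes. For the 3 genes that start S phase it was -0.70. Both arrays numbered 2 were lowest for 7 members (23.3%, against 9.78% of probe sets), namely Mcm10, Gins2, Cdc45, Rrm2, Dut, Ccne1 and Ccne2. Gins2, a subunit of the GINS complex, had levels of 10.42, 9.86 and 10.03 in WT 1 to 3 and of 10.10, 10.02 and 10.11 in Selp-/- 1 to 3. Its range was wide in WT and narrow in Selp-/- HSC. Of all members Dut varied least, between 10.27 and 10.42 in the 6 arrays.

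The F test of the array number called 3 of 30 members, Ccne1, Pole and Rrm2 (10%), against 12.8% of probe sets, a share near the background. Ccne1, cyclin E1, which activates Cdk2 for S phase entry, had levels of 10.51, 9.66 and 10.45 in WT 1 to 3 and of 10.55, 9.51 and 10.28 in Selp-/- 1 to 3. Both arrays numbered 2 were low and the other 4 close together. Number 2 minus number 1 was -0.94 (SE 0.13), or 1.92 times more in number 1. The adjusted p was 0.00909 in the F test and 0.103 in that contrast (limma). The call of the F test was lost without WT 2 (adjusted p 0.056) and without Selp-/- 2 (0.0547). The contrast passed without WT 3 (0.0419) and without Selp-/- 3 (0.0371).

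Ccne2, cyclin E2, had levels of 9.63, 9.21 and 9.34 in WT 1 to 3 and of 9.73, 8.75 and 9.59 in Selp-/- 1 to 3. Number 2 minus number 1 was -0.70 (SE 0.18). It did not pass the F test (limma, adjusted p 0.0879), and without WT 2 it did (0.0412). Within genotypes that difference was -0.42 in WT and -0.98 in Selp-/- HSC for Ccne2, and -0.85 and -1.03 for Ccne1. Whether the genotypes differ in it was not tested. E2f1, a transcription factor that activates both cyclins, was lowest in WT 1, at 9.98 against 10.23 to 10.49 in the other arrays.

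Rrm2 had levels of 10.96, 10.67 and 11.29 in WT 1 to 3 and of 11.06, 10.68 and 11.44 in Selp-/- 1 to 3. In both genotypes it was highest in number 3 and lowest in number 2. Number 3 minus the mean of numbers 1 and 2 was 0.52 (SE 0.11), a ratio of 1.44, with an adjusted p of 0.0185 in that contrast and 0.0325 in the F test (limma). The contrast was lost without WT 3 (0.104) and without Selp-/- 3 (0.131). The F test was lost without WT 2 (0.0859), WT 3 (0.129), Selp-/- 2 (0.0955) or Selp-/- 3 (0.135). Its partner Rrm1 had levels of 11.94, 11.85 and 11.56 in WT 1 to 3 and of 12.13, 11.81 and 11.77 in Selp-/- 1 to 3, lowest in number 3. The contrast of Rrm1 was -0.27 (SE 0.11, adjusted p 0.126 with limma), and Tyms, Tk1 and Dut gave -0.20, -0.20 and -0.013. The other probe set of Tk1 gave -0.045 and was lowest in both arrays numbered 2. Of the 5 nucleotide supply genes Rrm2 was thus the one with a higher level in number 3.

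**Figure D3:**
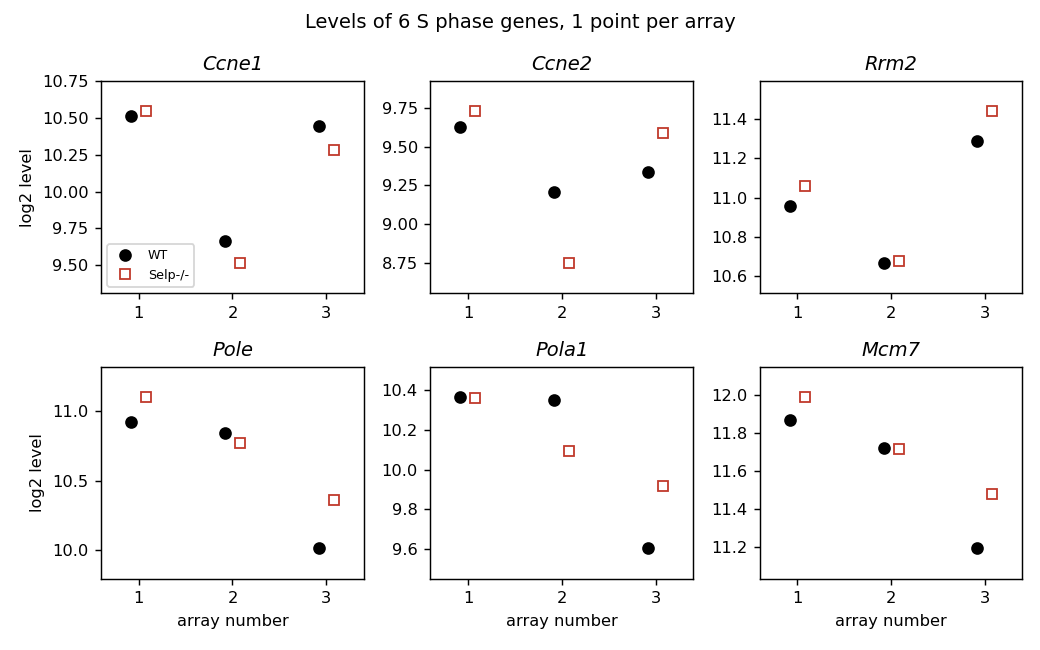
Log2 levels of 6 S phase genes by array number, 1 point per array, WT as filled circles and Selp-/- as open squares (each panel has its own axis, which does not start at 0). Ccne1 and Ccne2 are low at number 2, Rrm2 is high at number 3, and Pole, Pola1 and Mcm7 are low at number 3.

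The replicative polymerases Pole and Pola1 and the helicase subunit Mcm7 were lower in the arrays numbered 3. Pole had levels of 10.93, 10.84 and 10.01 in WT 1 to 3 and of 11.10, 10.77 and 10.36 in Selp-/- 1 to 3, with both arrays numbered 3 under all others. Number 3 minus the mean of numbers 1 and 2 was -0.73 (SE 0.13), or 1.65 times more in numbers 1 and 2, with an adjusted p of 0.0104, and 0.0269 in the F test (limma). Without WT 3 both were lost (0.114 and 0.198), and without Selp-/- 1 the F test was lost (0.0573). Pola1, which extends the primers, had levels of 10.37, 10.35 and 9.60 in WT 1 to 3 and of 10.36, 10.09 and 9.92 in Selp-/- 1 to 3. Its contrast was -0.53 (SE 0.14, adjusted p 0.0383 with limma), and it did not pass the F test (0.0893). The contrast groups numbers 1 and 2 after earlier results of these data, so its p-values are not those of a preset contrast. For Pola1 it was lost without WT 1 (0.0726), WT 2 (0.0901), WT 3 (0.393) or Selp-/- 1 (0.0746). It was also lost without a filter on dim probe sets (0.06) or normalization (0.16).

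Mcm7 had levels of 11.87, 11.72 and 11.19 in WT 1 to 3 and of 11.99, 11.72 and 11.48 in Selp-/- 1 to 3. Both arrays numbered 3 were the lowest. Its contrast was -0.49 (SE 0.11, adjusted p 0.0248 with limma), and it did not pass the F test (0.054). It did pass the F test with a filter at the 60th percentile (limma, adjusted p 0.0493) and without the genotype term (0.043). It also passed without normalization (0.0218), where 6364 probe sets did. The contrast was lost without WT 1 (0.0524), WT 2 (0.0668), WT 3 (0.26), Selp-/- 1 (0.0568) or Selp-/- 3 (0.0532). It was also lost with median centring (0.0605) and without normalization (0.413). In all, limma called 4 members in that contrast, against 20.8% of probe sets. Of these 1 was higher in number 3 (3.33%, against 9.13%) and 3 were lower (10%, against 11.7%). At an unadjusted p under 0.05 lay 11 members (36.7%, against 35.6%), so members were called no more often than other probe sets. Without normalization Rrm2 and Ccne1 were called higher and Pole lower, beside 3862 probe sets higher and 874 lower of 17289. Of all calls 81.5% were then higher in place of 43.8%.

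In number 3 minus numbers 1 and 2 the median was below 0 in 4 of the 5 groups of members. The median was -0.29 for polymerase and fork genes, with 0 of 7 above 0. It was -0.19 for licensing genes, with the firing factors Mcm10 and Cdc45 above 0 and the firing factor Gins2 at -0.030. It was -0.20 for nucleotide supply genes. Chromatin and repair genes had -0.20, with 0 of 4 above 0. The genes that start S phase had a median of 0.23, with E2f1 at 0.23, Ccne1 at 0.31 and Ccne2 at 0.13, none past the threshold. The other probe set of Slbp gave -0.014 against -0.20 for the brighter, and that of Pcna -0.22 against -0.18. Both arrays numbered 3 lay under both numbered 1 for Ccne1 and Ccne2, and number 2 was lowest. For Ccne2 the contrast was -0.081 within WT and 0.35 within Selp-/- HSC. The difference between groups of members was not tested. Over all members the median was -0.20, with 24 of 30 below 0 (80%, against 52% of probe sets), and over all tested probe sets it was -0.013. Without WT 3 the members' median was -0.13. Without normalization all probe sets shifted by 0.21, and relative to that shift the members' median was -0.18 with 23 of 30 below it. Both arrays numbered 3 were lowest for 11 members (36.7%, against 25.1% of probe sets), among them Mcm5, Mcm6, Rfc4, Rfc5, Prim1 and Chaf1b. They were highest for Rrm2 and E2f1 (6.67%, against 20.1%). The HSC and mast cell markers given above changed between the same arrays. Of the neutrophil markers limma called 7 of 8 higher in number 3 (87.5%, against 9.13% of probe sets). Of the monocyte markers it called 4 of 6 higher (66.7%), with sums of 12300 and 17300 there against 4680 to 6400 elsewhere. The part of these cells in the S phase values was not tested.

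**Figure D4:**
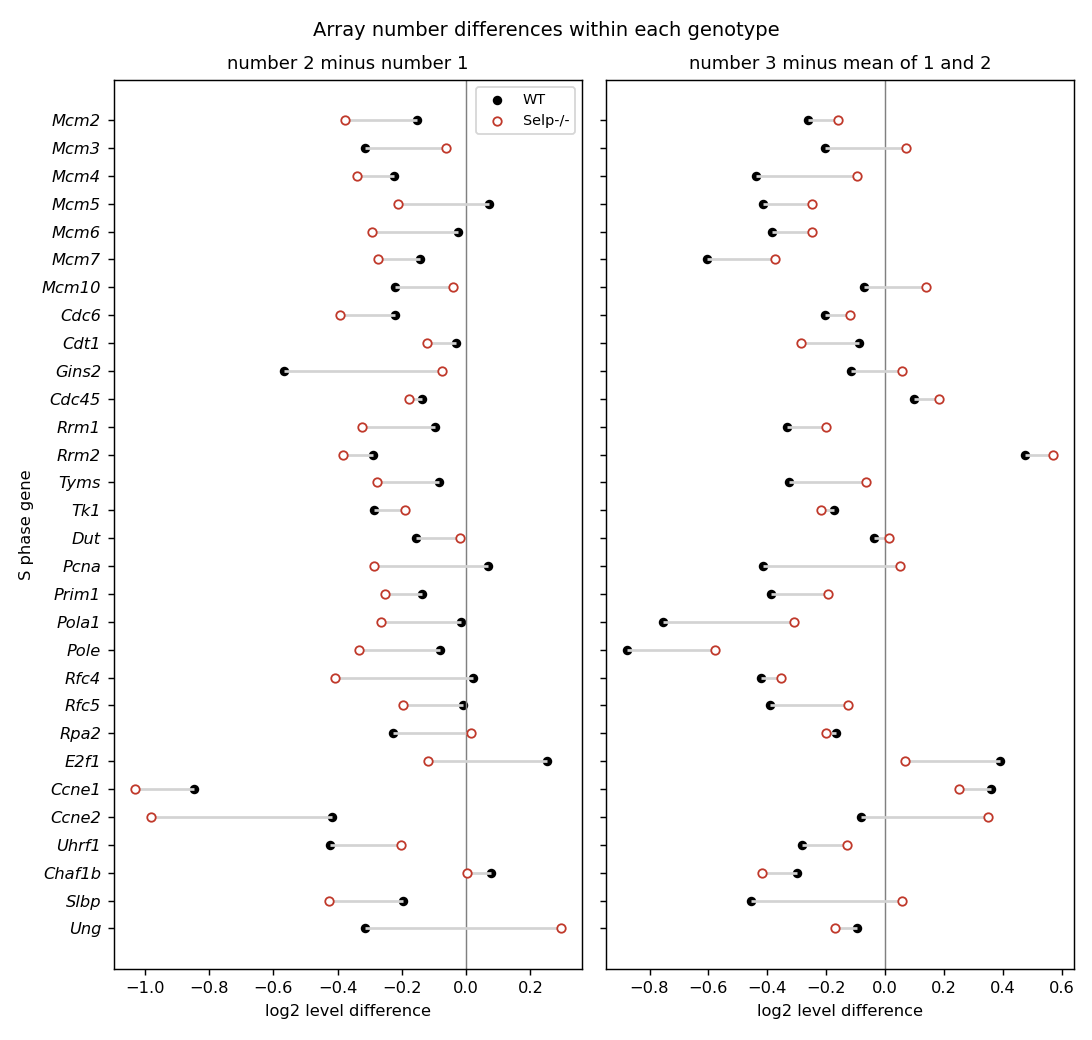
Array number differences in log2 level for each tested S phase gene within WT (filled) and Selp-/- (open), with number 2 minus number 1 on the left and number 3 minus the mean of numbers 1 and 2 on the right. Ccne1 and Ccne2 reach furthest left in the left panel, and Rrm2 lies furthest right in the right panel.

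Other genes of replication were compared by the same roles. Of 87 tested genes in 5 further lists, limma called 0 between genotypes (median 0.048, 58 above 0). Both arrays numbered 1 were highest for 27 of them (31%). In number 2 minus number 1, 70 lay below 0, with a median of -0.16. The F test called 10 (11.5%, against 12.8% of probe sets). In number 3 minus numbers 1 and 2 limma called 5 higher and 6 lower (12.6% in all, against 20.8%), with a median of -0.071. Neither share was above that of all probe sets. The median of the 20 further S phase entry genes in that contrast was -0.041, with 8 above 0, while all 3 members of that role lay above 0.

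Of 18 further licensing genes the F test called Dtl and Dbf4 (11.1%, against 12.8% of all probe sets). Dtl, which targets Cdt1 for degradation, had levels of 11.02, 10.71 and 10.11 in WT 1 to 3 and of 10.91, 10.55 and 10.25 in Selp-/- 1 to 3, lowest in number 3. Dbf4, the activator of the kinase Cdc7, was lowest in number 2, at 9.69 and 9.50 against 10.16 to 10.38 in the other arrays. Of 16 nucleotide supply genes, Mthfd2, an enzyme of mitochondrial folate metabolism, was higher in number 3, by 0.91 over numbers 1 and 2. Dctd, dCMP deaminase, was at 10.94 and 11.46 in number 3 and at 12.09 to 12.29 elsewhere. Of 23 polymerase and fork genes the F test called Fen1, the flap endonuclease (4.35%). Fen1 was at 9.92 and 9.95 in number 3 against 9.29 to 9.80 elsewhere.

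Of 20 further S phase entry genes the F test called 4 (20%, against 12.8% of all probe sets). In number 3 minus numbers 1 and 2, Tfdp2, a partner of E2F factors, gave -1.34, Rb1, the retinoblastoma protein, 0.87 and E2f2 0.47. Of 10 chromatin genes it called Asf1b (10%), a histone chaperone, which gave 0.42. Of 6 inhibitors of cyclin-dependent kinases it called Cdkn2c (16.7%), which gave -0.90. The inhibitors had a median of 0.22 in that contrast and of 0.059 in number 2 minus number 1, and number 1 was highest for 0 of 6.

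Genes of G2 and mitosis, which act after S phase, were highest in number 1 for 9 of 19 (47.4%), beside 53.3% of the S phase genes. They were lowest in number 2 for 10 of 19 (52.6%), beside 23.3% of the S phase genes. They were lowest in number 3 for 2 of 19 (10.5%), beside 36.7%. Their median was -0.38 in number 2 minus number 1, with 0 of 19 above 0, and 0.025 in number 3 minus numbers 1 and 2. The F test called Mki67 and Plk1 (10.5%, against 12.8% of all probe sets). In number 3 minus numbers 1 and 2, Mki67, a proliferation antigen, gave -0.54 and Plk1, a mitotic kinase, 0.45. The difference between these lists and the S phase genes was not tested. Actb, a housekeeping gene, lay between 14.40 and 14.49 in all 6 arrays.

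**Figure D5:**
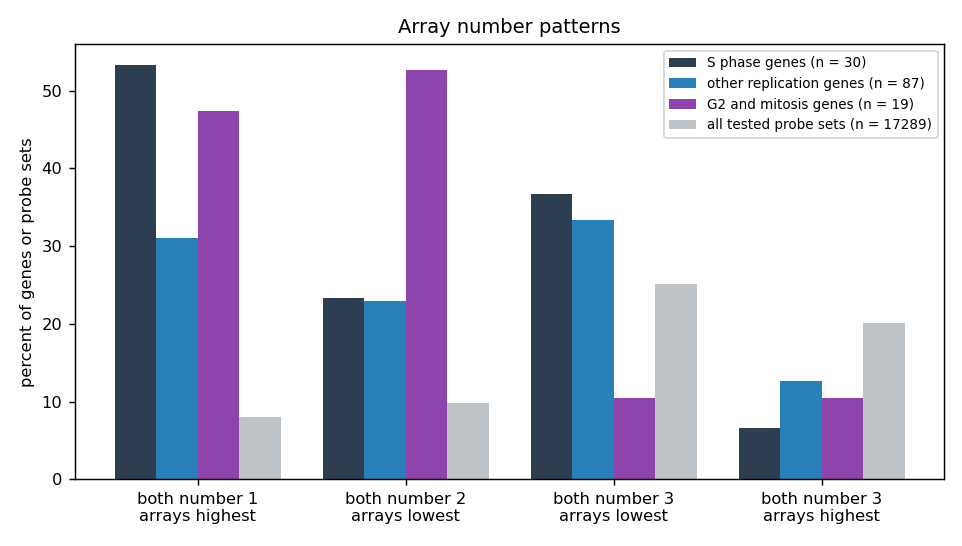
Percent of genes or probe sets for which both arrays of a number lie above or below all other arrays, for S phase genes, other replication genes, G2 and mitosis genes and all tested probe sets. Both arrays numbered 1 are highest for 53.3% of S phase genes and 47.4% of G2 and mitosis genes against 7.99% of all probe sets, and both arrays numbered 2 are lowest for 52.6% of G2 and mitosis genes.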

How the data were processed

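Expression was measured on 6 mouse arrays, 3 of WT and 3 of Selp-/- HSC, from biotin-labelled RNA. The values the authors deposited are linear intensities per probe set, and MAS5 is named for them without a version, per the submitters' processing notes. All were multiples of 0.5 with unequal medians, so no common scaling was visible. The intensities were corrected with normexp (offset 50), log2 transformed and quantile normalized (limma 3.58.1, R 4.3.3). The 17289 probe sets above the 40th percentile of mean level were tested, two-sided, with p-values adjusted over all of them (Benjamini-Hochberg, threshold 0.05). Genotype was fitted alone. Array number was fitted beside genotype, by an F test and by 2 contrasts, with the grouping of numbers 1 and 2 taken from earlier results. Every limma fit used a trend of variance on level, and the script was tested on simulated data. The number of arrays limits the precision.

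Names came from the platform annotation, updated through RefSeq (GRCm38.p6), for the 21780 probe sets with 1 symbol. The genes named are all members, each by its brightest probe set, up to 3 genes of each further list by smallest F test p among those past the threshold, markers of high mean level and Actb. Xist was chosen after its values were seen. The members and lists were chosen with earlier results of these data known. Arrays of the same number deviated together from their genotype means, with correlations of 0.43, 0.53 and 0.81 over all tested probe sets. They were therefore treated as pairs. WT 1 with Selp-/- 2 gave 0.37 and WT 2 with Selp-/- 1 gave 0.51, so over all probe sets only number 3 stood apart. Over the members the same-number values were 0.42, 0.56 and 0.75, and those unlike pairs gave -0.0985 and 0.16. The alternatives were other normalizations, background steps and filters, no variance trend, the replicate block and leaving out each array.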

Additional observations from a re-analysis of the deposited data

Results flagged for a closer look

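Mcm3, a helicase subunit, differed in direction between the genotypes. Its level in WT 3 was below that in WT 1 and WT 2, and its level in Selp-/- 3 was above that in Selp-/- 1 and Selp-/- 2. Number 3 minus the mean of numbers 1 and 2 came to -0.20 for WT and to 0.07 for Selp-/- on the log2 scale. The difference was not tested. Groups of 3 arrays were not screened for outlying arrays.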

How the results depend on the processing

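Each array number had only 2 arrays, and number moved with marker genes and array brightness. The calls by number were lost one by one as arrays were left out. The arrays carry no detection calls, so how far dim members such as Gmnn lie above background is not known here. The alternatives for number 2 minus number 1, for the groups of members and for the count with number 1 highest were chosen after seeing the data.

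The genotype test called 0 members under each alternative run, the replicate block included, and the block changed no other call. In the arrays numbered 1 and 2 alone it called 4 probe sets. The members' median genotype difference was 0.18 without normalization, where all probe sets shifted by 0.12, and ran from -0.064 to 0.12 with each array left out. Without normalization the F test of the number called 6364 of 17289 probe sets and 15 of 30 members. Number 2 minus number 1 then called 12 members. No count of all probe sets called stands beside these 12, so they are no result about the members. In that contrast 94% of all probe sets then lay below 0. Without the genotype term number 2 minus number 1 called 1 member, also with no count of all probe sets called beside it. The members' median without normalization was 0.030 in number 3 minus numbers 1 and 2 and -0.54 in number 2 minus number 1, and with median centring the latter was -0.33. In number 3 minus numbers 1 and 2 the group medians without normalization were 0.057 for licensing, 0.027 for nucleotide supply, -0.080 for polymerase and fork, 0.46 for S phase entry and 0.021 for chromatin and repair genes. Number 1 was highest for 23 members with median centring and for 13 without normalization, against 14.8% and 15.1% of probe sets. With each array left out in turn, the F test called 1036 to 2153 probe sets and 1 to 3 members. An array left out leaves its number with a single array, so counts of members called in the contrasts are then no result about the members. The members' median in number 2 minus number 1 ran from -0.29 to -0.11 and in number 3 minus numbers 1 and 2 from -0.27 to -0.13. The group medians in number 3 minus numbers 1 and 2 ran from -0.23 to -0.12 (licensing), -0.19 to -0.066 (nucleotide supply) and 0.12 to 0.35 (S phase entry). In the arrays numbered 1 and 2 alone, the genotype difference turned sign for Mcm2 (-0.018), Mcm6 (-0.014), Cdc6 (-0.018), Tyms (-0.053), Pcna (-0.10), Prim1 (-0.0084), Pola1 (-0.13), Rfc5 (-0.062) and Slbp (-0.13). Without normalization, the genotype difference turned sign for Mcm3 (0.037), Mcm4 (0.12), Mcm10 (0.091), Gins2 (0.11), Tk1 (0.013), Dut (0.10), Ccne1 (0.059), Ccne2 (0.083) and Chaf1b (0.080). With median centring, the genotype difference turned sign for Mcm4 (0.028), Gins2 (0.023) and Dut (0.011). With the mean of all probe sets, the genotype difference turned sign for Slbp (-0.018). With each array left out, the genotype difference turned sign in at least 1 case for Mcm2 (-0.11 to 0.094), Mcm3 (-0.17 to 0.0078), Mcm4 (-0.18 to 0.091), Mcm6 (-0.096 to 0.11), Mcm7 (-0.067 to 0.27), Mcm10 (-0.086 to 0.026), Cdc6 (-0.10 to 0.10), Gins2 (-0.15 to 0.13), Cdc45 (-0.0077 to 0.13), Rrm2 (-0.10 to 0.28), Tyms (-0.077 to 0.11), Dut (-0.072 to 0.0061), Pcna (-0.082 to 0.14), Prim1 (-0.074 to 0.15), Pola1 (-0.23 to 0.15), Pole (-0.14 to 0.34), Rfc5 (-0.10 to 0.094), E2f1 (-0.050 to 0.21), Ccne1 (-0.37 to 0.21), Ccne2 (-0.22 to 0.27), Chaf1b (-0.17 to 0.072) and Slbp (-0.12 to 0.16). Without normalization, number 3 minus numbers 1 and 2 turned sign for Mcm2 (0.069), Mcm3 (0.18), Mcm4 (7e-04), Cdc6 (0.046), Cdt1 (0.057), Gins2 (0.18), Rrm1 (0.017), Tyms (0.027), Tk1 (0.026), Dut (0.22), Rfc5 (0.036), Rpa2 (0.032), Uhrf1 (0.015), Slbp (0.027) and Ung (0.087). With each array left out, number 3 minus numbers 1 and 2 turned sign in at least 1 case for Mcm3 (-0.20 to 0.072), Mcm10 (-0.070 to 0.14), Gins2 (-0.14 to 0.083), Dut (-0.045 to 0.020), Pcna (-0.43 to 0.050), Ccne2 (-0.081 to 0.35) and Slbp (-0.45 to 0.055). With median centring, number 2 minus number 1 turned sign for E2f1 (-0.057) and Chaf1b (-0.14). Without normalization, number 2 minus number 1 turned sign for E2f1 (-0.27) and Chaf1b (-0.34). With each array left out, number 2 minus number 1 turned sign in at least 1 case for Mcm5 (-0.22 to 0.078), Cdt1 (-0.16 to 0.0066), Pcna (-0.35 to 0.14), Pola1 (-0.35 to 0.064), Rfc5 (-0.24 to 0.034), E2f1 (-0.16 to 0.28), Chaf1b (-0.017 to 0.096) and Ung (-0.26 to 0.24). Each turned value belongs to a gene that did not pass the test in question. The cause of these changes was not tested.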
